A study of Equus caballus with 8 samples.

Results

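The genes described here are transcription factors and cadherins associated with the epithelial-mesenchymal transition (EMT). They were chosen by symbol: SNAI1, SNAI2, TWIST1, TWIST2, ZEB1, ZEB2, CDH2, CDH4, CDH11 and CDH13. Of these 10 genes, 9 were found among the 15266 named genes of the table, 6 transcription factors and 3 cadherins, while CDH4 was not analysed here. All 9 passed the filter on low values, which asked for 4 or more of the 8 libraries with 10 or more normalized counts and left 14907 genes for testing. A normalized count is the number of reads on a gene divided by a size factor for its library.

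The cells were equine BM-MSCs (bone marrow-derived mesenchymal stem cells), plastic-adherent stromal cells grown from the sternal marrow of 4 adult Thoroughbred or Thoroughbred-cross horses, labelled D, J, L and W. The marrow of each horse was divided, so that 1 culture stayed untreated and 1 received 1 ng/ml human recombinant TGF-β2, giving 4 untreated and 4 TGF-β2-treated libraries. Both cultures grew in low-glucose DMEM with fetal bovine serum and, per the study's methods, basic fibroblast growth factor. The labels describe treatment from isolation until passage 3 or 4, whereas the methods give 3 passages. With 1 culture for each horse and condition, the spread between horses includes that between cultures, and a difference between horses in their response could not be tested.

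In EMT, epithelial cells give up their junctions and take on a migratory mesenchymal form. SNAIL (SNAI1), SLUG (SNAI2) and the ZEB proteins are zinc finger factors that bind E-box motifs and repress CDH1, the epithelial E-cadherin, while the TWIST proteins are basic helix-loop-helix factors that pair with E proteins. Cadherins are calcium-dependent adhesion proteins, and the replacement of E-cadherin by N-cadherin (CDH2) is a classical sign of EMT. TGF-β is a well-known inducer of EMT in epithelial cells. Marrow stromal cells are mesenchymal from the outset and express these factors as part of their normal state.

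The label of the cells was checked against marker genes. Of 8 markers of mesenchymal stem cells, 7 were listed. Their summed level was 173462 to 369344 normalized counts in untreated and 173015 to 271858 in treated libraries. THY1 and VCAM1 were called lower after treatment, with log2 fold changes of -2.21 and -7.55, none was called higher and 5 were not called. Among the uncalled, ITGB1, a large part of the sum, had a log2 fold change of 0.91. The sum therefore does not show the size of these falls. The epithelial markers CDH1, EPCAM, KRT18, KRT19 and ESRP1 were not analysed here, and the 3 epithelial markers listed summed to at most 478 normalized counts in any library. The 6 haematopoietic markers listed summed to between 511 and 2675 normalized counts in untreated and between 393 and 725 in treated libraries. Of these, ITGB2 was called lower with the horse in the model but not without it. It passed the filter through its untreated libraries, so this call is a description. PTPRC, which encodes CD45, had at most 109.7 normalized counts. The 2 endothelial markers listed, CDH5 and KDR, summed to 7.10 to 26.3 normalized counts in untreated and 30.0 to 55.7 in treated libraries. KDR was called higher and CDH5 was not called. KDR passed the filter through its treated libraries, so its call is a description. The 6 smooth muscle and pericyte markers summed to 35443 to 175779 normalized counts in untreated and to 214850 to 576308 in treated libraries, 3 of them called higher. Among the called ones, DES had at most 7.54 normalized counts in untreated libraries. It passed the filter only through its treated libraries, so its call is a description. The part that any of these shifts has in the values of the transcription factors and cadherins was not tested. In such bulk samples, fewer cells of a type and less RNA per cell cannot be told apart.

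Of the 6 transcription factors, 3 fell after TGF-β2 treatment and none was called higher. TWIST1 fell the most, 5.61-fold between the group means, followed by ZEB2 (2.68-fold) and SNAI1 (2.27-fold). ZEB1 had a mean 1.95-fold higher after treatment, just short of the fold change threshold. Of the 3 cadherins, CDH2 rose 3.31-fold, while CDH11 and CDH13 did not pass the test. A gene was called when its Benjamini-Hochberg adjusted p from limma, fitted to log2(normalized count + 1) with the horse as a block, was under 0.05 and its absolute log2 fold change was over 1. By this rule 14.1% of all tested genes were called, 6.83% higher and 7.31% lower, against 4 of the 9 genes described here. Without the block, 11.5% of all tested genes were called, and the calls of the 9 genes were the same. There was no overlap between the treated and the untreated libraries in 5 of the 9 genes, against 27.8% of all tested genes. The 4 horses changed in the same direction in 6 of the 9 genes, against 51.9% of all tested genes. The 9 genes had a median log2 fold change of -0.15, the 6 transcription factors one of -0.75, and all tested genes one of 0.01. When total scaling, to an equal sum of counts in each library, was used instead, the median log2 fold change of all tested genes was -0.30 and 27.6% of the called genes were higher, against 48.3% under the deposited normalization. The same 4 genes were called under that scaling.

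**Figure D1:**
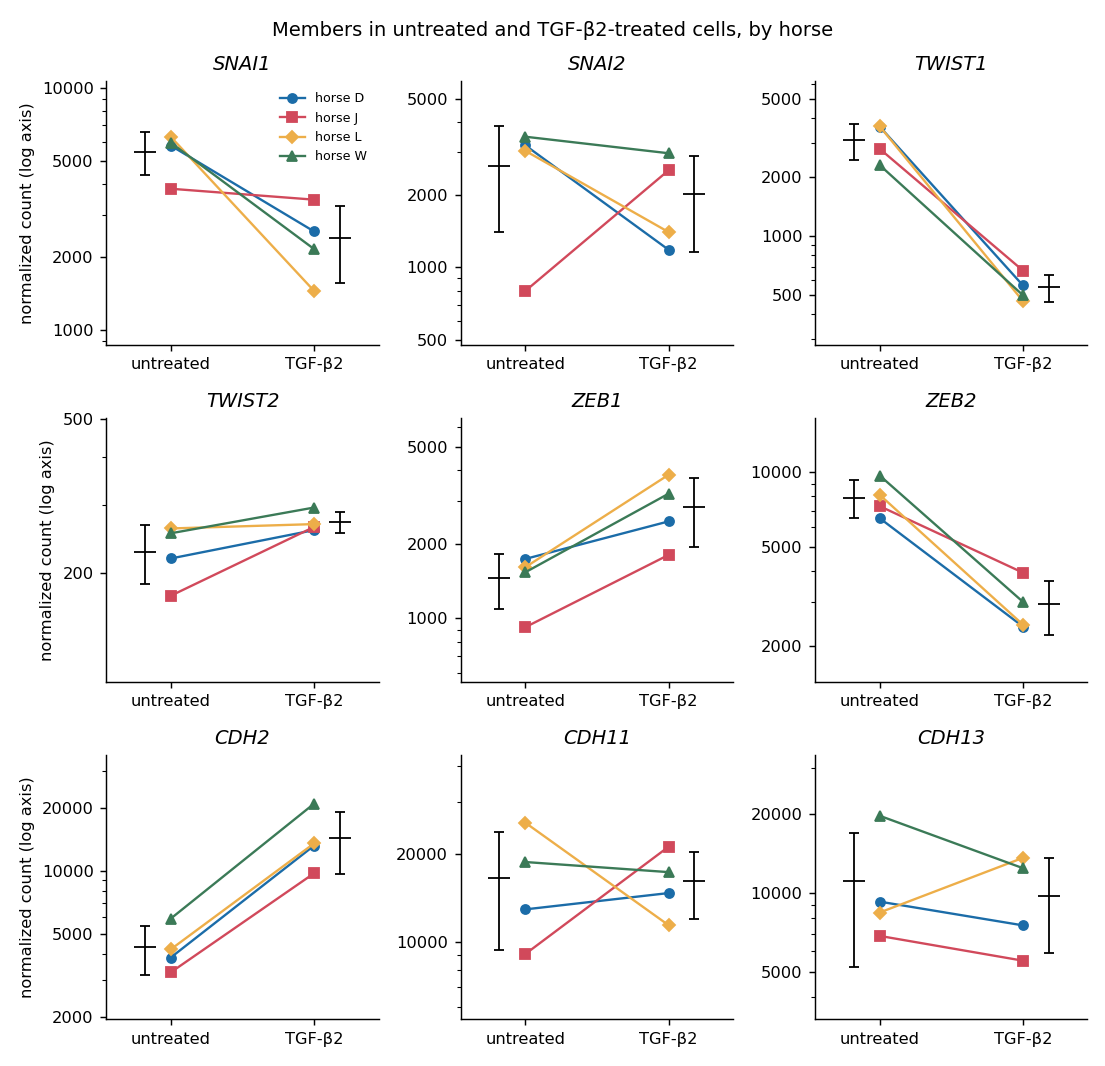
Normalized counts (log axis, with its own range in each panel) of the 9 genes in the untreated and TGF-β2-treated library of each horse, joined by a line, with the mean ± SD of each group (n = 4) in black beside them. The lines of TWIST1, ZEB2 and SNAI1 slope down and those of CDH2, ZEB1 and TWIST2 up in all 4 horses. Those of SNAI2, CDH11 and CDH13 slope up in some horses and down in others.

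TWIST1, a basic helix-loop-helix factor that keeps mesenchymal progenitors undifferentiated, had 3620.4 normalized counts in the untreated library of horse D, 2791 in J, 3634 in L and 2306 in W. In the treated libraries it had 562, 669, 468 and 501 normalized counts in the same order. Every treated library thus lay far below every untreated one, and the treated libraries spanned only 1.43-fold between the lowest and the highest. The group means were 3088 ± 654 and 550.0 ± 88.5 normalized counts (SD, n = 4). The log2 fold change of TWIST1 was -2.47 (standard error 0.17, limma adjusted p = 0.00145), and only 2.22% of all tested genes had a lower one. The decrease ran from -2.95 in horse L to -2.06 in horse J. TWIST1 stayed called with any single horse left out.

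TWIST2, also called DERMO1, is the close relative of TWIST1. The untreated libraries of D, J, L and W held 218, 175, 261 and 254 normalized counts of TWIST2 and the treated ones 258, 263, 268 and 296. These levels were higher in the treated culture of every horse, by 0.04 to 0.59 on the log2 scale, but the groups overlapped. Its log2 fold change was 0.27, with a 95% interval of -0.10 to 0.64 (limma adjusted p = 0.214). Under total scaling the value was -0.039, so that the direction of TWIST2 depended on the scaling. The recovered reads of TWIST2 numbered 217 to 277 per library.

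ZEB2, a zinc finger homeobox repressor that also binds SMAD proteins, had 6534, 7304, 8108 and 9699 normalized counts in the untreated libraries of D, J, L and W. With TGF-β2 the values were 2396, 3946, 2439 and 3012. The groups were clearly apart, and the treated library of horse J was the highest of the treated ones. Means were 7912 ± 1354 and 2948.5 ± 722 normalized counts (SD, n = 4). The log2 fold change of ZEB2 was -1.44, with a standard error of 0.16 and a limma adjusted p of 0.00383. The change of ZEB2 was -0.89 in horse J and between -1.73 and -1.45 in the other 3 horses. It stayed called with any single horse left out.

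ZEB1, the relative of ZEB2 that represses epithelial junction genes, was by contrast higher in every treated library than in any untreated one. Its untreated levels were 1745, 920.4, 1614 and 1539 normalized counts in D, J, L and W, and its treated levels 2479.85, 1811, 3836 and 3214. Horse J had the lowest value in each group. The mean (± SD, n = 4) was 1455 ± 366 normalized counts without and 2835 ± 879 with treatment. ZEB1 had a log2 fold change of 0.95, with a 95% interval of 0.61 to 1.29 and a limma adjusted p of 0.00747, which passes the p threshold but not the fold change threshold. An adjusted p under 0.05 alone was reached by 30.9% of all tested genes. With horse D left out the log2 fold change was 1.10 and ZEB1 was called, and with horse W left out the limma adjusted p was 0.0524. The difference was smallest in horse D, at 0.51, and largest in horse L, at 1.25.

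SNAI1, which encodes SNAIL, had 5776, 3833, 6278 and 5939 normalized counts without treatment in D, J, L and W, and 2554, 3455, 1451 and 2160.1 with it. The untreated libraries of D, L and W were close together and that of J was well below them, yet still above every treated library. Group means were 5457 ± 1103 and 2405 ± 836 normalized counts (SD, n = 4), and the log2 fold change was -1.22 (standard error 0.31, limma adjusted p = 0.0332). Horse J showed almost no decrease, -0.15, while horse L showed one of -2.11. The call of SNAI1 was lost with horse D, L or W left out, with limma adjusted p of 0.115, 0.0783 and 0.137. Without horse J the log2 fold change was -1.58 and the limma adjusted p 0.00436.

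SNAI2, which encodes SLUG, split the horses. In untreated cells it had 3201, 798, 3038 and 3474 normalized counts in D, J, L and W, and in treated cells 1183, 2521, 1400.2 and 2967. Horses D, L and W had less SNAI2 in the treated culture, with log2 changes of -1.44, -1.12 and -0.23, and horse J had more, with a change of 1.66. The untreated library of J, at 798, was less than any other library of either group. Over the 4 horses the log2 fold change was -0.28 with a 95% interval of -1.56 to 1.00 (limma adjusted p = 0.707), so that changes in either direction are within the interval. Without horse J it was -0.93 and passed the p threshold alone (limma adjusted p = 0.0337), and without horse D it was 0.10.

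CDH2 encodes N-cadherin, the main classical cadherin of mesenchymal and neural cells. The untreated libraries of D, J, L and W held 3859, 3279, 4221 and 5914 normalized counts of CDH2, and the treated ones 13171, 9723, 13487 and 20859. The lowest treated library was above the highest untreated one, and the horses kept the same order in both groups, from J through D and L to W. The mean (± SD, n = 4) was 4318 ± 1132 normalized counts without and 14310.0 ± 4687 with treatment. With a log2 fold change of 1.71, a standard error of 0.08 and a limma adjusted p of 9.72e-04, CDH2 had the smallest standard error of the 9 genes. The increase lay between 1.57 and 1.82 in the 4 horses, an SD of 0.11, and 9.33% of all tested genes had a smaller SD. It was called with any single horse left out. Under total scaling its log2 fold change was 1.40.

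CDH11, the osteoblast cadherin or OB-cadherin, is a cadherin of mesenchymal and bone-forming cells. Its levels without treatment were 12919.9 normalized counts in D, 9084 in J, 25593 in L and 18766 in W. Treated cultures had 14692, 21163, 11409.9 and 17330.2 in the same order. Horse L, the highest of the untreated libraries, became the lowest of the treated ones, and J went from lowest to highest. The changes were thus -1.17 in L and 1.22 in J, with -0.11 and 0.19 in W and D. The means, 16591 ± 7202 and 16149 ± 4128 normalized counts (SD, n = 4), differed by far less than the spread between horses. The log2 fold change was 0.03 with a 95% interval of -0.88 to 0.95 (limma adjusted p = 0.956). Without horse J it was -0.36 and without horse L 0.43.

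CDH13 encodes T-cadherin, a cadherin anchored by a lipid instead of a transmembrane domain, which binds adiponectin. In D, J, L and W it had 9263, 6858, 8419 and 19675 normalized counts without treatment and 7522, 5518, 13602 and 12422.5 with it. Horses D, J and W had lower values in the treated culture and horse L a higher one, with changes from -0.66 in W to 0.69 in L. The log2 fold change was -0.15, with a 95% interval of -0.71 to 0.42 (limma adjusted p = 0.651). Leaving out horse W turned it to 0.03, and leaving out horse L gave -0.43.

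**Figure D2:**
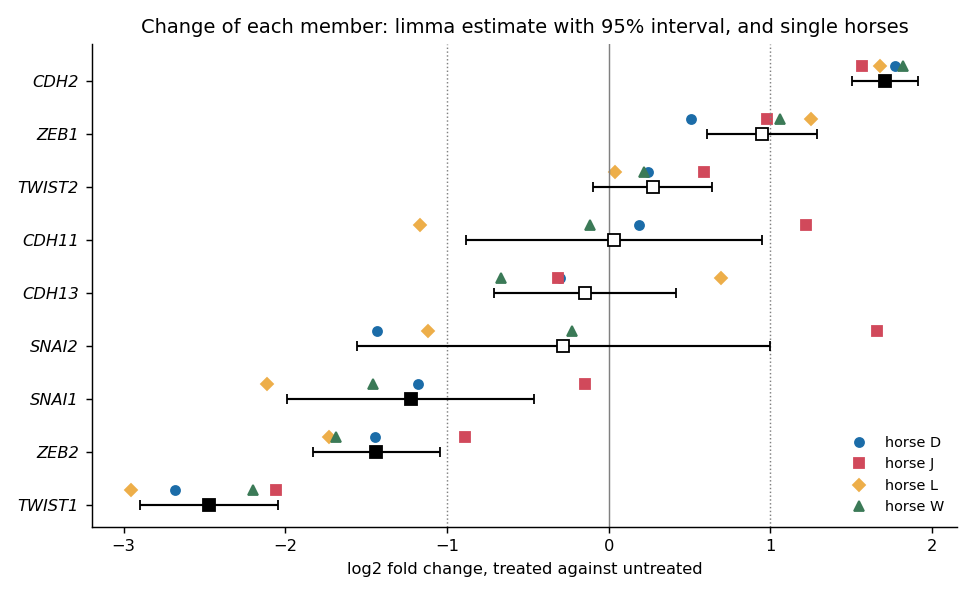
Log2 fold change of each of the 9 genes between TGF-β2-treated and untreated cells (squares, filled where called) with its 95% interval from limma, and above it the change in each horse; dotted lines mark the fold change threshold of 1. The 4 horses lie close together for CDH2, from 1.57 to 1.82, and far apart for SNAI2, from -1.44 to 1.66.

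The genes differed in how alike the horses were. The SD of the log2 change over the 4 horses was 1.39 for SNAI2, 0.98 for CDH11 and 0.82 for SNAI1, and 95.9%, 90.3% and 85.7% of all tested genes had a smaller SD. It was 0.23 to 0.58 for TWIST2, ZEB1, ZEB2, TWIST1 and CDH13, around or above the median of 0.31 over all tested genes except for TWIST2. Horse J held an end of the range for several of them. Its change was the most positive of the 4 horses for SNAI1, SNAI2, TWIST1, TWIST2, ZEB2 and CDH11, and the smallest increase for CDH2. How often horse J had the most positive change over all tested genes was not computed, so this is a description. The untreated library of horse J was the lowest of the untreated libraries for 7 of the 9 genes, all but TWIST1 and ZEB2. It was the lowest for 35.8% of all tested genes, a larger share than for any other horse.

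Ratios of 2 genes within a library do not depend on how the libraries were scaled to each other. Since transcript lengths were not used, only the change of a ratio is compared, not its level. The log2 ratio of TWIST2 to TWIST1 was higher in the treated library of all 4 horses, by 2.42 to 2.99 with a mean of 2.75 ± 0.26 (SD, n = 4 horses), a 6.71-fold difference. That of ZEB2 to ZEB1 was lower in all 4 horses, with differences of -2.98 to -1.86 and a mean of -2.39 ± 0.56. That of CDH11 to CDH2 was lower in all 4 horses too, with differences from -2.84 in horse L to -0.35 in horse J and a mean of -1.68 ± 1.03. The 2 members of each of these pairs thus differed in their response in the same sense in every horse. For each of these 3 ratios a two-sided exact sign-flip permutation test over horses gave p = 0.125, the smallest that 4 horses allow, or 0.167 after Benjamini-Hochberg adjustment over 4 ratios. The ratio of SNAI2 to SNAI1 was higher in 3 horses and lower in horse D, with a mean change of 0.94 ± 0.87 (exact permutation p = 0.250). The sign-flip test cannot pass 0.05 with 4 horses, and no other test of the ratios was run.

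**Figure D3:**
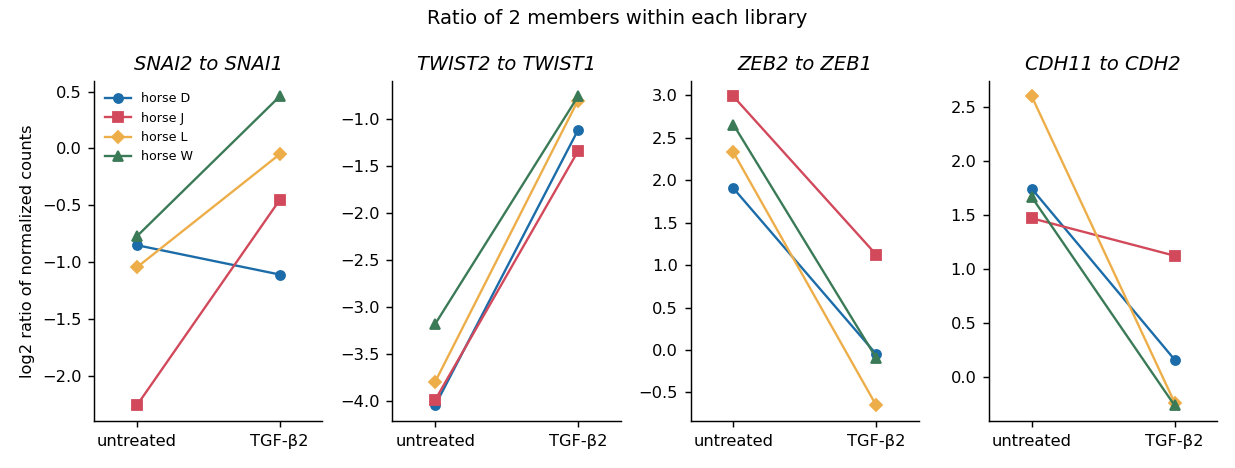
Log2 ratio of normalized counts of 2 genes within each library, for the untreated and the TGF-β2-treated library of each horse joined by a line; the axes differ between panels. The lines slope up for TWIST2 to TWIST1 and down for ZEB2 to ZEB1 and CDH11 to CDH2 in all 4 horses, and that of SNAI2 to SNAI1 slopes down in horse D only.

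The tested genes most alike in pattern were taken as the 2 with the highest Pearson correlation of log2 values over the 8 libraries, which share 4 horses and 2 conditions, so these are descriptions. For TWIST1 they were RARG (r = 0.990) and C1QTNF5 (r = 0.986), with log2 fold changes of -2.04 and -1.26. For SNAI1 they were KREMEN1 (r = 0.994) and JAM2 (r = 0.988), with larger decreases of -3.66 and -3.13. ZEB2 was most like PMEL and MFSD11 (r = 0.988 and 0.985), ZEB1 like GNAZ and TMEM200C (r = 0.991 and 0.979), and CDH2 like LOC111772942 and LCAT (r = 0.993 and 0.992). Genes that did not pass the test also had close neighbours, FSTL1 and MAGED2 for TWIST2 (r = 0.988 and 0.987), LRRC41 and AEBP1 for SNAI2 (r = 0.959 and 0.956), PPP3CA and TRMT10B for CDH11 (r = 0.970 and 0.954), and C21H5orf49 and LOC111771098 for CDH13 (r = 0.968 and 0.962). Among the 9 genes themselves, SNAI1, TWIST1 and ZEB2 were correlated over the 8 libraries (r = 0.895 to 0.927), and TWIST1 ran opposite to CDH2 (r = -0.950). These genes were all called, without overlap between the groups, so large correlations follow from their calls. Within the untreated libraries the order of the horses differed, with W lowest for TWIST1 and highest for ZEB2. Within the treated ones SNAI1 and TWIST1 had the same order, but such matches also arose elsewhere, as SNAI1, TWIST2 and CDH11 shared an order in the untreated ones.

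Lists of genes that work with or beside these factors were also examined, 100 tested genes in all. Of these 25 were called, 15 higher and 10 lower, and under total scaling 13 higher and 15 lower. The counts are a description, beside the 14.1% of all tested genes that were called. Of the 25 called genes, 20 were also called with any single horse left out. Both counts include KLF8, CDH26, CELSR1, PCDH17, DSG2 and KRT8, which needed the group where they are high to pass the filter. The filter favoured a call for these genes, so the counts are not a measure of how many list genes respond.

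Other EMT regulators had 1 gene called higher and 5 lower of 13 tested, with a median log2 fold change of -0.52. The mesenchymal homeobox factor PRRX1, with means of 60109 ± 8080 and 26951 ± 7673 normalized counts (SD, n = 4), fell with a log2 fold change of -1.19 (limma adjusted p = 0.0119). PRRX1 was not called with horse D or W left out (limma adjusted p up to 0.0677). TBX2, KLF4 and the low-expressed KLF8 were lower by -1.88, -1.38 and -2.13 on the log2 scale. KLF8 passed the filter only through its untreated libraries. By contrast, SOX9, the chondrogenic factor that cooperates with SLUG, was higher by 1.21 (limma adjusted p = 0.0175). The call of SOX9 was lost without horse D or W (limma adjusted p up to 0.0717) and under total scaling, where its log2 fold change was 0.90. The most abundant genes of the list that were not called, SOX4 and FOXC1, had log2 fold changes of -0.045 and -0.21.

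Of 8 partners and inhibitors of TWIST proteins, 2 were lower and none higher, with a median of -0.14. Both were inhibitors that sequester E proteins, ID2 with a log2 fold change of -1.48 and ID4 with -1.44 (limma adjusted p = 0.00380 and 0.00619). The E protein gene TCF12 and the inhibitor ID3, the most abundant of those not called, had log2 fold changes of 0.03 and -0.24, and TCF12 had -0.28 under total scaling. Among 14 corepressors that SNAIL and ZEB proteins recruit, 0 were called by limma, with a median of 0.46, and 8 had a limma adjusted p under 0.05 without the fold change threshold, against 30.9% of all tested genes. All 8 were higher, though CTBP1 had a log2 fold change of -0.027 under total scaling. RCOR1, a subunit of the CoREST complex, was the nearest to a call, with a log2 fold change of 0.97 and 0.93 to 1.00 in single horses (limma adjusted p = 0.00163, chosen after its values were seen). SMARCA4 and HDAC1 had 0.69 and 0.08. Of 13 genes that act on the stability of SNAIL, 0 were called by limma and 5 had a limma adjusted p under 0.05, a share near the 30.9% of all tested genes. Of these 5 genes, 2 were higher and 3 lower. GSK3B, the kinase that marks SNAIL for breakdown, had a log2 fold change of 0.70, and the lower ones were BTRC, SKP2 and CTDSP1, with -0.59, -0.55 and -0.55 (named after their values were seen). The abundant CSNK1A1 had -0.12. DESeq2 and edgeR with the horse in the model also called 0 genes of either list, and 9 genes of each had an unadjusted p under 0.05 in limma.

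Of the other genes named as cadherins, 4 were listed and 3 tested. CDH24 had 94.8, 100.3, 98.9 and 56.8 normalized counts in the untreated libraries of D, J, L and W and 266, 255, 328 and 239 in the treated ones. It rose with a log2 fold change of 1.65 (limma adjusted p = 0.00384), without overlap between the groups. CDH26 had 18.3, 181, 20.7 and 109 normalized counts without treatment, while 3 treated libraries held no read and that of W 2 reads, a ratio of 137 with a 95% Poisson interval of 37.9 to 1129 that covers counting error only. CDH26 passed the filter only through its untreated libraries, so its limma adjusted p of 0.00429 is a description. CDH5, the endothelial cadherin, was low in all libraries, with 6.09 to 23.8 normalized counts, and had a log2 fold change of 0.52 (limma adjusted p = 0.264). CDH23 did not pass the filter, with 4.04 to 7.54 normalized counts in untreated cells and 4.28 to 138 in treated cells.

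More distant relatives of the cadherins had 3 genes called higher and 1 lower of 16 tested, with a median of 0.50. The protocadherin PCDH17, with means of 11.1 ± 9.07 and 652 ± 534 normalized counts (SD, n = 4), rose by 5.70 on the log2 scale, and the atypical cadherins CELSR1 and CELSR2 by 4.66 and 1.04 (limma adjusted p = 0.00622, 0.00988 and 0.0466). CELSR1 had at most 5.65 normalized counts in untreated libraries and passed the filter only through its treated ones, so its values are a description. PCDH17, with 2.83 and 4.06 normalized counts in the untreated libraries of L and W, passed through its treated libraries too. Its call is likewise a description. CELSR2 was not called without the block for the horse (limma adjusted p = 0.168). It was also lost without horse D, L or W, as was the decrease of FAT4 (log2 fold change -1.72), with limma adjusted p of up to 0.171 and 0.0910. FAT1 and DCHS1 had -0.48 and 0.69. In the catenins and other junction partners, 1 of 13 was called, with a median of -0.12. NECTIN1, an adhesion protein that helps to form cadherin junctions, had a log2 fold change of 1.36 (limma adjusted p = 0.0149), lost without horse D or L (limma adjusted p up to 0.0520). CTNNB1, which encodes β-catenin, and VCL were not called, at -0.31 and -0.33 on the log2 scale.

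Of 26 epithelial genes, 10 were tested and 3 were called higher and none lower over the 4 horses, with a median of 0.31. They were DSC2, DSG2 and KRT8, while DSP, which encodes desmoplakin, had a log2 fold change of 0.69 and was not called (limma adjusted p = 0.209, chosen after its values were seen). The desmosomal cadherin DSC2 had means of 543 ± 128 and 4234 ± 2266 normalized counts and DSG2 of 36.7 ± 23.2 and 572 ± 154 (SD, n = 4). They rose by 2.84 and 4.22 on the log2 scale (limma adjusted p = 0.00135 and 0.00374). DSG2 had 7.10 normalized counts in the untreated library of W and needed its treated libraries to pass the filter, so its call is a description. KRT8 had 1 read over the 4 untreated libraries and 33 to 106 reads in each treated one. The ratio was 294, with a 95% Poisson interval of 52.8 to 11630.1 that covers counting error only. KRT8 passed the filter only through its treated libraries, so its call as higher by limma is a description. CLDN4, which encodes a tight junction protein, was not called and had a log2 fold change of -1.20 (limma adjusted p = 0.247). It ranged from -2.04 to -0.52 with 1 horse left out, and without horse L, where it was -2.04, CLDN4 was called lower (limma adjusted p = 0.0401). Of 10 mesenchymal genes, 6 were higher and 1 lower, with a median of 1.80. FN1, SPARC, FAP, ITGA5, ACTA2 and TAGLN had log2 fold changes of 1.33 to 3.30, while S100A4, also named fibroblast-specific protein, fell from 33277 ± 6652 to 4018 ± 1827 normalized counts (log2 fold change -3.21, limma adjusted p = 0.00303). VIM, the intermediate filament protein of mesenchymal cells, had -0.70 (limma adjusted p = 0.0661) and MMP2 -0.17. Under total scaling VIM was called lower, with a log2 fold change of -1.01.

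**Figure D4:**
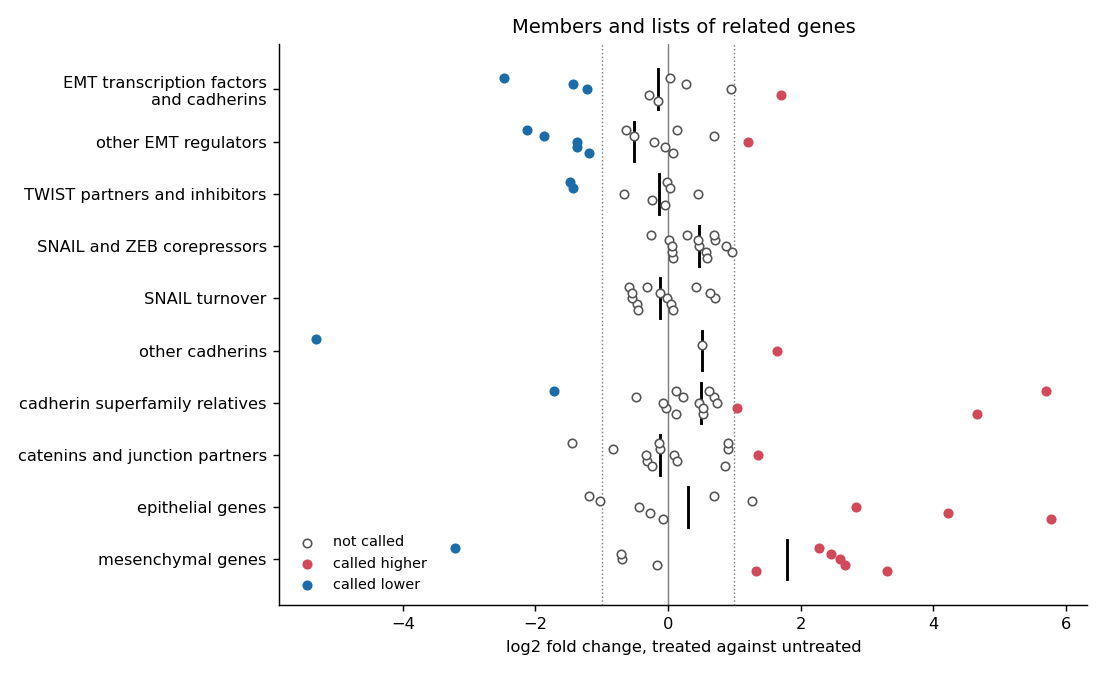
Log2 fold change between TGF-β2-treated and untreated cells of the 9 genes (top) and of the tested genes of each list, filled where called higher (red) or lower (blue), with the median of each list as a black bar and dotted lines at the fold change threshold of 1. TWIST1, ZEB2 and SNAI1 lie below -1 and CDH2 above 1, and no gene of the corepressor and SNAIL turnover lists is called.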

How the data were processed

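The authors sequenced poly(A)-selected RNA from 8 BM-MSC cultures in paired-end mode. After trimming with Trimmomatic 0.36, alignment used STAR 2.5.2b and EquCab 3.0, and unique hits per gene were counted by featureCounts (Subread 1.5.2). The deposited signal is the count of a gene over a DESeq2 size factor of its library (normalized count). The table held 15267 rows, of which 1 without a gene name was left out. Each value was divided by that of 1 read, the smallest value of its library, and 100% came out whole within 0.001 of a read. The recovered reads totalled 39184554 to 57228675 per library.

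Genes were tested with limma 3.58.1 (eBayes with trend, R 4.3.3) on log2(normalized count + 1) with the horse as a block, since the titles name the horse of each library. This scale understates the change of low genes. Libraries of the same horse deviated together from the group means (r = 0.386 to 0.609, against a mean of -0.159 between horses). The study states no term for the horse, so the fit without it was an alternative, along with the pseudocounts 0.5 and 5, other filters and scalings, no trend, DESeq2 1.42.0, edgeR 4.0.16, other thresholds and each horse left out. On simulated data for 15137 genes limma with the block recovered 200 of 200 changed genes with 1 other call. Limma without the block recovered 199 of them. Recovery at the fold changes and the spread between horses of the genes described here was not tested.

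The genes and lists were chosen with earlier results of these data known. Named are the 9 genes, every other gene called CDH and a number, every called gene of the lists, the 2 most abundant uncalled genes of each list, and the 2 genes most alike in pattern, though some list genes in the counts are not reported here by name. Sequences and coordinates were not used here.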

Additional observations from a re-analysis of the deposited data

Results flagged for a closer look

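In the untreated libraries, horse J stood apart for 2 of the 9 genes by Dixon's test for a group of 4. For SNAI2 its 798 normalized counts lay below the other 3 libraries by a gap of 0.909 of the group's range on the log2 scale. For SNAI1 its 3833 normalized counts gave a gap of 0.831. Chance flags about 1 in 20 groups, and 27 groups of 4 values were checked. The values without horse J are given beside each of these genes.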

How the results depend on the processing

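No call of the 9 genes differed between the fits with and without the replicate block (SNAI1 had -1.22 in both, limma adjusted p = 0.0150 without the block), and 1709 genes were called without it, 1689 of them shared with the 2108 called with it. The calls over all tested genes numbered 1116 at an adjusted p under 0.01 and 4610 with no fold change threshold, and 1080 to 2442 with 1 horse left out, the fewest without W and 1173 without D. The list genes called numbered 42 with no fold change threshold. SNAI1, at -1.22, was not called without the intensity trend (limma adjusted p = 0.0545) or at an adjusted p under 0.01, and ZEB1, at 0.95, passed with no fold change threshold. Leaving out 1 horse gave -1.58 to -0.93 for SNAI1, -0.93 to 0.10 for SNAI2, 0.85 to 1.10 for ZEB1, -0.36 to 0.43 for CDH11 and -0.43 to 0.026 for CDH13. Signs turned under total scaling for TWIST2 (-0.039), CDH11 (-0.28), TCF12 (-0.28), HDAC1 (-0.23) and PPP3CA (-0.27), and under DESeq2 without the horse for CDH11 (-0.041) and TCF12 (-0.017). With 1 horse left out they turned for SOX4 (-0.47 to 0.12), FOXC1 (-0.37 to 0.0071), TCF12 (-0.073 to 0.19), DCHS1 (-0.10 to 1.35), MMP2 (-0.57 to 0.048), LRRC41 (-0.075 to 0.0097), PPP3CA (-0.075 to 0.18) and TRMT10B (-0.12 to 0.063). None of these genes whose sign turned was called in the reported fit, and the cause was not tested. TWIST1, ZEB2 and CDH2 were called under every alternative run.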
